A study of Mus musculus with 8 samples.

Results

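The genes described here are those that make and carry the IgA of the gut: Jchain, Igha, Igkc, Iglc1, Iglc2, Iglc3, Mzb1 and Pigr. They were picked by symbol, and all 8 were found in each of the 8 count matrices, out of 32285 genes that the matrices share. The study compared intestinal stem cells and their surroundings in mice on a C57BL/6 background, and its title names lymphatic and stem cells. Single-cell libraries were made from small intestinal organoids at passage 1, grown alone or in coculture with cells that the labels do not name, with 16 wells pooled and 100000 epithelial cells sorted for each, and from dissociated small and large intestine. The tissue cells came from C57BL/6 and Lgr5-eGFP-ires-CreERT2 mice and were live cells enriched for LGR5+ stem cells and CD31+ PDPN+ LYVE1+ lymphatic endothelial cells, so the number of plasma cells in a library describes the sort and not the organ. Visium sections, 10 µm thick, were made from each intestine as technical duplicates, in which each spot holds the RNA of several cells.

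IgA is the main antibody secreted into the gut. Plasma cells of the lamina propria make it as a dimer: the alpha heavy chain, encoded by Igha, pairs with a kappa light chain (Igkc) or a lambda light chain (Iglc1, Iglc2 or Iglc3), and the J chain, encoded by Jchain, joins the units. Mzb1 encodes an endoplasmic reticulum protein of B and plasma cells that helps antibody secretion. The polymeric immunoglobulin receptor, encoded by Pigr, takes up dimeric IgA at the base of epithelial cells and carries it to the lumen.

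In the RefSeq annotation of GRCm38.p6, the assembly of mm10, Igha spans 113256204 to 113260236 on chromosome 12 and Igkc spans 70726435 to 70726754 on chromosome 6. The lambda constant genes lie together on chromosome 16, Iglc1 at 19061752 to 19062071, Iglc3 at 19065365 to 19065681 and Iglc2 at 19198536 to 19198852. Iglc2 and Iglc3 are near-identical copies, so reads could be split between them in ways that the files do not show. Jchain spans 88519809 to 88527897 on chromosome 5 and Pigr spans 130826684 to 130852249 on chromosome 1. The 250 bases before the start of Jchain (chr5:88527898-88528147, minus strand) and of Pigr (chr1:130826434-130826683, plus strand) are shown because these 2 genes mark the opposite ends of the route, the secreting cell and the transporting cell, and were high in different cell classes. Both come from the RefSeq promoter table of GRCm38.p6, which held 2 of the 8 genes. Capitals mark every E-box, CANNTG on either strand, the motif of the factors named for binding it.
Jchain: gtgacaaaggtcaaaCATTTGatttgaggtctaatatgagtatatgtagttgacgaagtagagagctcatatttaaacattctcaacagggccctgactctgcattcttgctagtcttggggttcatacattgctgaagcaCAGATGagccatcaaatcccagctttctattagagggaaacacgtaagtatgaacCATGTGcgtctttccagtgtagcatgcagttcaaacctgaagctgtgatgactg
Pigr: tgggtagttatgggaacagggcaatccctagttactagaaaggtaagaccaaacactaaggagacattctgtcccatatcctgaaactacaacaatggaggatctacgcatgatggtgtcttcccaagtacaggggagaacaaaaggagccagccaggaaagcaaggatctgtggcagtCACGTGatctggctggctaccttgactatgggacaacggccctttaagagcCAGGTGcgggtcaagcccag
The Jchain stretch held 3 E-boxes and the Pigr stretch held 2, and 66.2% of the 32851 promoters in the table hold at least 1 in a window of the same length. The Pigr E-box that begins 71 bases before the start is the palindrome CACGTG, which 6.02% of the promoters hold. Neither stretch held the octamer ATGCAAAT, the TATA box TATAAA or the interferon-stimulated response element, found on either strand in 1.60%, 12.4% and 2.98% of promoters. These are matches of letters, and no binding was measured.

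The files hold raw counts of unique molecular identifiers (UMIs), 1 for each captured RNA molecule. A cell was retained when it had 500 or more genes and no more than 20% of its UMIs from mitochondria. These limits and the removal of likely doublets kept 538 of 818 in control and 1028 of 1233 in cocultured organoids. In tissue they kept 2695 of 8842 in small and 5882 of 8646 in large intestine. Median depth per kept cell was 73664 and 86295 UMIs in the organoids, 11810 in small and 21761 in large intestinal tissue. Kept cells of the 2 tissue libraries shared 2 barcodes and those of the organoid libraries shared 0. Cells were clustered without any immunoglobulin gene, Jchain, Mzb1 or Pigr, so none of the 8 genes shaped a class, and classes were named from marker genes. Levels are UMIs per 1000000 UMIs of the class (CPM), with 95% exact intervals that cover counting error only. There was 1 library per tissue and per culture, and the sections are technical duplicates, so no test between groups could be run, and tissue and library cannot be told apart. A difference is called only where it is at least 2-fold.

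The plasma-like class held 88 cells of small intestine and 288 of large intestine, with median depths of 25170 and 19738 UMIs. Its leading genes were Slpi, Ly6c2 and Ccr10 in small intestine and Ly6c2, Glipr1 and Cd52 in large intestine, and it was named from 10 detected markers in small and 9 in large intestine. The median cell of the class gave 65.7% of its UMIs to immunoglobulin genes and Jchain in small intestine and 56.7% in large intestine. The median cell outside the plasma-like and B-like classes held 0.0751% in small and 0.101% in large intestine.

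Igha reached 152869 CPM in small intestinal and 126713 CPM in large intestinal plasma-like cells. Over single cells its median was 152824 CPM (quartiles 129191 and 176843) in small intestine and 133445 CPM (99233 and 162880) in large intestine, so the cells of both tissues overlapped over most of their range. The log2 ratio of small to large intestine was 0.27 (95% interval 0.26 to 0.28). In small intestine 86 of 88 plasma-like cells carried IgA as their main heavy chain, and in large intestine 288 of 288 did (97.7%, 95% interval 92.0 to 99.7, and 100%, 98.7 to 100, Clopper-Pearson). The exceptions were a pair of small intestinal IgG1 cells with 2593 and 5157 UMIs of Ighg1, the IgG1 heavy chain, and 3 UMIs of Igha each. These 2 cells still held Jchain at 41132 and 36645 CPM and Mzb1 at 2381 and 4813 CPM. Ighg1 was the heavy chain constant gene furthest from 1 between the tissues in this class, at 3521 against 46.4 CPM (log2 ratio 6.24), where 2593 and 5157 of its 7799 UMIs in small intestine came from those 2 cells.

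**Figure D1:**
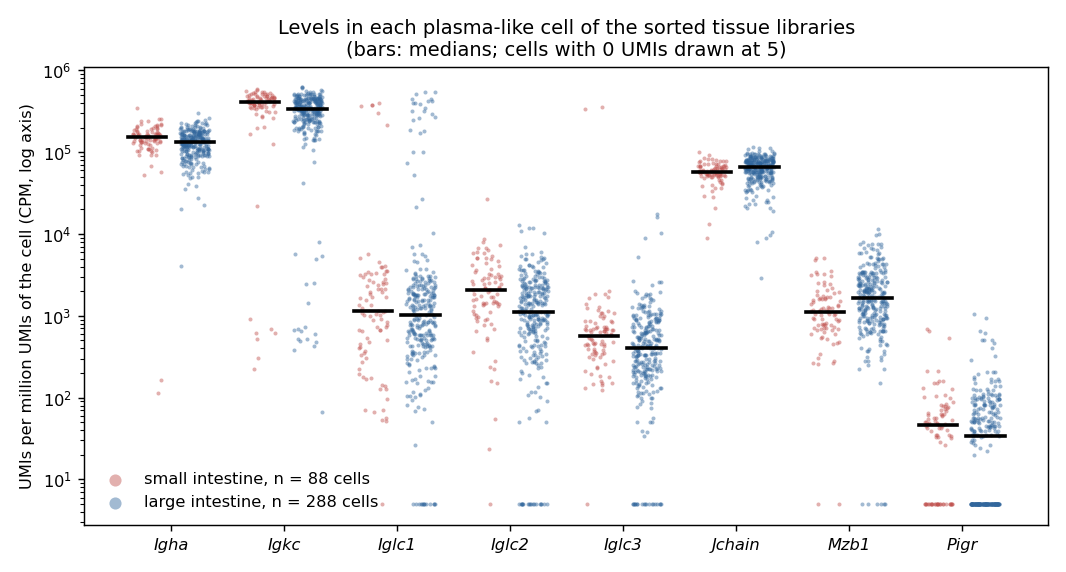
CPM of each plasma-like cell on a log axis for the 8 genes, small intestine in red (88 cells) and large intestine in blue (288 cells), with black bars at the medians and cells without a UMI drawn at 5. Igha, Igkc and Jchain lie in 1 narrow band in nearly all cells, Iglc1 in both tissues and Iglc3 in small intestine have most cells in a low band and a few far above it, and Pigr lies lowest.

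Igkc gave the most UMIs of the set, which are not divided by gene length, at 387522 CPM in the small and 333851 CPM in the large intestine (log2 ratio 0.22, 0.21 to 0.22). The median cell held 411536 CPM (quartiles 353709 and 467730) and 336273 CPM (241572 and 421302). Cells split by light chain: calling a cell by the chain with at least 80% of its light chain constant UMIs, 80 kappa, 7 lambda and 1 mixed cell were found in small intestine and 265, 19 and 4 in large intestine. Lambda cells were thus 7.95% (95% interval 3.26 to 15.7) and 6.60% (4.02 to 10.1) of the class, and these intervals overlapped. As a share of UMIs, the lambda constant genes made up 9.50% of light chain constant UMIs in small and 9.09% in large intestine.

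**Figure D2:**
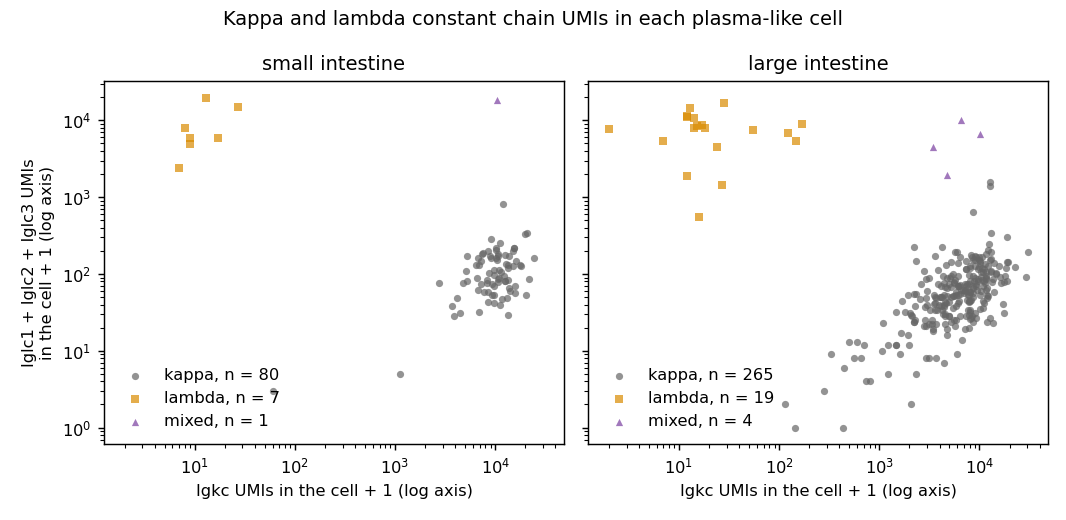
Igkc UMIs against the sum of Iglc1, Iglc2 and Iglc3 UMIs in each plasma-like cell, both plus 1 on log axes, with kappa cells as grey circles, lambda cells as orange squares and mixed cells as purple triangles. The 7 lambda cells of small intestine and the 19 of large intestine stand apart at low Igkc, and 1 and 4 mixed cells lie high on both axes.

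Among lambda cells, Iglc1 was the leading constant gene in 5 of 7 in small intestine and in 19 of 19 in large intestine, and Iglc3 led in the other 2. Iglc1 reached 24914 CPM in small and 31067 CPM in large intestine over the whole class (log2 ratio -0.32, -0.33 to -0.30), although its median cell held 1135 and 1019 CPM, since a few cells carried nearly all of it. Iglc2 stood at 2866 and 1643 CPM (0.80, 0.76 to 0.85) and led in no lambda cell of either tissue. Iglc3 was the only 1 of the 7 genes of IgA production that differed at least 2-fold between the tissues, at 12891 against 669 CPM (log2 ratio 4.27, 4.22 to 4.32), beside 17.8% of the 8034 genes measured in this class. That difference rests on the 2 Iglc3-led cells, which carried 19336 and 7854 of the 28552 Iglc3 UMIs of the class. Without them the log2 ratio was -0.07. With all cells of the class, the median cell held 572 CPM in small and 400 CPM in large intestine, and the log2 ratio of 4.27 was 1.96 with doublets kept, 2.33 with a looser and 3.01 with a stricter cell filter, and 3.57 from the mean CPM of each cell.

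The lambda variable genes were a readout outside the light chain call. Iglv1 had the most UMIs of the 3 lambda variable genes in 7 of 7 small intestinal and 18 of 19 large intestinal lambda cells, with Iglv2 leading in the remaining large intestinal cell. Kappa cells held it too: Iglv1 was found in 77 of 80 small intestinal kappa cells (median 30 UMIs) and 239 of 265 large intestinal ones (median 9), against medians of 61 and 34 UMIs in lambda cells. Kappa cells also held the lambda constant genes, with median levels of 1030 CPM of Iglc1, 1853 CPM of Iglc2 and 594 CPM of Iglc3 in small intestine. The same medians were 852, 1189 and 403 CPM in large intestine. Epithelial classes of the same libraries held 36.7, 8.61 and 10.4 CPM of these genes in small and 57.5, 2.74 and 4.20 CPM in large intestine. In lambda cells the median of Igkc was 8 UMIs in small and 15 UMIs in large intestine, against 10148 and 6215 in kappa cells. The mixed cells were not shallow: the small intestinal one held 10320 UMIs of Igkc, 18499 of Iglc1 and 61838 in all, and the large intestinal ones held between 17407 and 52516 UMIs, and whether they were 2 cells in 1 droplet was not tested.

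Jchain was high in every plasma-like cell, at 58268 CPM in the small and 64886 CPM in the large intestine (log2 ratio -0.16, -0.16 to -0.15). The lowest cell held 9051 and 2915 CPM and the highest 101685 and 114093 CPM, with medians of 57724 and 64989 CPM. After thinning every cell to 2000 UMIs, Jchain was found in 100% of plasma-like cells of both tissues, against 10.8% of small and 17.7% of large intestinal cells of epithelial classes, which should lack it (median depths 24814 and 27391 UMIs before thinning). Kappa and lambda cells had medians of 57220 and 59806 CPM in small and 65163 and 61326 CPM in large intestine. Set against the heavy chain in the same cell, the median IgA cell held 39.2 Jchain UMIs per 100 Igha UMIs in small intestine (quartiles 31.4 and 47.4) and 51.4 in large intestine (41.2 and 62.9). Light chain UMIs per Igha UMI were close, 2.79 (2.27 to 3.31) and 2.73 (2.03 to 3.54).

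Mzb1, the secretion cofactor, stood at 1417 CPM in the small and 2258 CPM in the large intestine (log2 ratio -0.67, -0.73 to -0.62). The median cell held 1124 CPM (quartiles 710 and 1651) in small and 1659 CPM (910 and 2783) in large intestine. Per 100 Jchain UMIs, the median IgA cell held 1.72 Mzb1 UMIs in small intestine (1.06 to 2.94) and 2.59 in large intestine (1.25 to 5.11). These values lean to large intestine, but the cells overlapped and the difference was under 2-fold. The median log2 ratio of all 8034 genes in this class was -0.37, beside the larger share of UMIs that immunoglobulin genes took in small intestine. Counted over genes other than immunoglobulins and Jchain, the log2 ratios were 0.58 for Igha, 0.53 for Igkc and -0.36 for Mzb1. On that scale Jchain turned direction, from -0.16 to 0.16, the Iglc1 ratio was -0.0053, and Iglc2 was past 2-fold at 1.12.

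The other genes of the plasma cell programme were taken as fixed lists. Of 20 genes for secretory machinery, 15 were highest in the plasma-like class of small intestine and 16 in that of large intestine, beside 1.97% of 9688 and 2.36% of 11079 genes measured. Nothing is read from these counts, since the clustering used the same genes. They included Xbp1, named after its values were seen, the factor that enlarges the endoplasmic reticulum, at 1177 and 1392 CPM. Between the tissues 0 of the 20 differed by 2-fold, with a median log2 ratio of -0.25, from Prdm1, the repressor that commits B cells to secretion, at 0.20 to the chaperone gene Hsp90b1 at -0.89. Of 6 measured genes for mucosal homing, 2 were at least 2-fold higher in small intestine and 0 lower, beside the 17.8% of all genes that were 2-fold apart. Ccr9, the receptor for the small intestinal chemokine CCL25, stood at 58.7 against 2.95 CPM (130 and 17 UMIs, log2 ratio 4.32, 3.58 to 5.14). Ccl25 itself, an epithelial gene, stood at 22.6 against 4.51 CPM (2.32) in these cells, beside 475 and 24.4 CPM in epithelial classes of the same libraries, and the part of free epithelial RNA in it was not tested. Ccr10, the receptor for CCL28 and also named after its values were seen, stood at 325 and 410 CPM, and the integrin genes Itga4 and Itgb7 were the lowest of the list at -0.58 and -0.52. Of 5 measured genes for IgA induction and plasma cell survival, 0 differed by 2-fold. Tnfrsf13b, which encodes the APRIL and BAFF receptor TACI, stood at 165 and 123 CPM, and Tgfb1 at 17.2 and 27.2 CPM.

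B-like cells (301 in small and 123 in large intestine) held a different mixture. Their heavy chain constant UMIs were 62.2% Ighm, the IgM chain, in small and 66.1% in large intestine, with 20.7% and 16.6% of Ighd. Igkc stood at 6327 and 9389 CPM, Jchain at 258 and 278 CPM and Mzb1 at 396 and 386 CPM. Of their light chain UMIs, 10.4% were Iglc2 and 9.39% Iglc3 in small intestine, against 0.669% and 3.01% in plasma-like cells, and 9.04% and 7.27% in large intestine, against 0.447% and 0.182%. Iglc1 ran the other way in large intestine, with 4.55% in B-like and 8.46% in plasma-like cells, while in small intestine it was 5.52% and 5.82%. A small intestinal B-like cluster of 19 cells led by Ms4a1, Mef2b and Basp1 held more Jchain (859 CPM) and Mzb1 (878 CPM) than the main cluster of 282 cells led by Ebf1 (94.6 and 265 CPM). Of the cells outside both classes, 16 small intestinal dendritic-like cells led by Siglech, a plasmacytoid dendritic gene, held Iglc3 at 1194 CPM (139 UMIs) and Mzb1 at 232 CPM (27 UMIs) with Jchain at 34.4 CPM.

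A few barcodes held much of the immunoglobulin UMIs in the remaining classes, more so in small than in large intestine. At least 10% of UMIs were immunoglobulin in 7 of 2306 such cells in small intestine and 12 of 5471 in large intestine, and these held 68.1% and 35.4% of the immunoglobulin UMIs outside plasma-like and B-like cells. Leaving them out lowered Igkc in goblet-like cells of small intestine from 5499 to 387 CPM and in T or NK-like cells of large intestine from 63159 to 1201 CPM. Iglc1 in macrophage-like cells of large intestine went from 3160 to 105 CPM.

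Pigr was an epithelial gene in both tissues, at 1164 CPM over the epithelial classes of small intestine (1153 to 1175) and 1410 CPM in large intestine (1403 to 1418), a log2 ratio of -0.28 that is close to the median of -0.29 over all 14906 genes measured there. The background was taken from the 8 classes of at least 20 cells in each library that are not epithelial, where Pigr ran from 67.3 to 237 CPM in small intestine (median 160) and from 55.3 to 127 CPM in large intestine (median 73.6). A single cluster can lie above that range: the shallowest small intestinal lymphatic endothelial-like cluster, with a median of 1288 UMIs, held Pigr at 451 CPM. The part of depth in the background was not tested.

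In small intestine the order was cycling-like cells at 1708 CPM (1683 to 1732), enterocyte-like cells at 1631 CPM (1603 to 1659), stem-like cells at 1560 CPM (1518 to 1602) and goblet-like cells at 1023 CPM (996 to 1051). Enteroendocrine-like cells followed at 502 CPM, Paneth-like cells at 245 CPM and tuft-like cells at 168 CPM. Of these neighbours, no pair had overlapping counting intervals, which cover counting error and not the spread between animals. Tuft-like and Paneth-like cells lay within 2-fold of the B-like cells (164 CPM), while the other 5 of 7 classes lay at least 2-fold above. After thinning to 2000 UMIs, Pigr was found in 82.6% of enterocyte-like, 43.3% of Paneth-like and 24.2% of tuft-like cells, against 25.3% of B-like cells (median depths 28646, 17981, 16150 and 2802 UMIs before thinning).

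In large intestine goblet-like cells, the mucus makers, came first at 1814 CPM (1799 to 1828). Colonocyte-like cells followed at 1456 CPM (1432 to 1480), then stem-like cells at 1222 CPM (1206 to 1238), enteroendocrine-like cells at 1107 CPM (1037 to 1179) and cycling-like cells at 1104 CPM (1092 to 1116), of which the last 2 had overlapping intervals. Tuft-like cells were lowest at 487 CPM (448 to 529). The large intestinal stem-like class joins a cluster led by Hbb-bs, Reg3b and Sox4 and one led by Cps1, Ces1d and Sult1a1. They were named from 4 and 3 detected markers, against 10 in small intestine, so the name is weaker in large intestine. All 6 classes lay at least 2-fold above the B-like cells (113 CPM), and Pigr was found in 94.1% of thinned goblet-like cells against 16.8% of thinned B-like cells. Goblet-like cells thus stood at the top of the order in large intestine and in the fourth place in small intestine, with a log2 ratio of small to large intestine of -0.83 (-0.87 to -0.79), under 2-fold. Past 2-fold were tuft-like cells (-1.54, -1.76 to -1.33), whose CPM lay within the background range in small intestine, and enteroendocrine-like cells (-1.14). The B-like cells of small intestine are shallower: 168 Pigr UMIs lay in 301 of them, and 264 in 99 tuft-like cells. Whether small intestinal tuft-like cells held Pigr beyond free RNA was not tested.

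**Figure D3:**
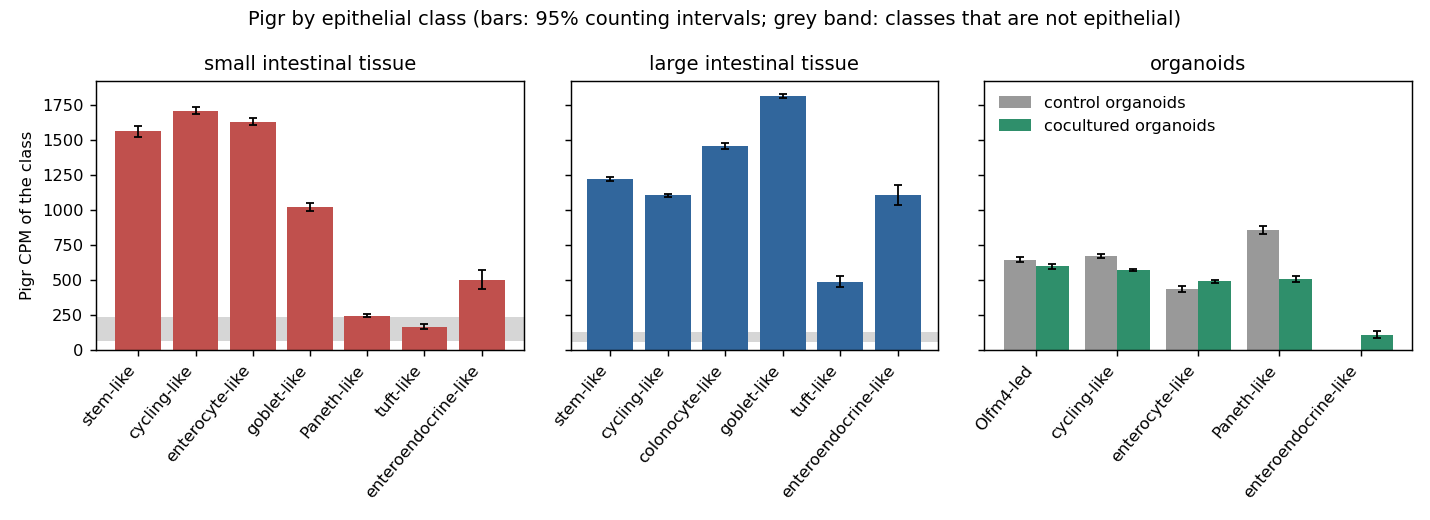
Pigr CPM by epithelial class in small intestinal tissue, large intestinal tissue and organoids, with 95% counting intervals as bars and a grey band over the range of the classes that are not epithelial. Paneth-like and tuft-like cells of small intestine lie at or near the band, goblet-like cells of large intestine are highest at 1814 CPM, and Paneth-like organoid cells differ most between the cultures. Control organoids had 5 enteroendocrine-like cells and no bar is drawn.

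Pigr also varied within classes. Enterocyte-like cells of small intestine fell into a cluster led by Fabp1, Reg1 and Rbp2 with 1921 CPM and one led by the ileal bile acid gene Fabp6 with 1052 CPM, while an unnamed cluster led by Dmbt1, S100g and Reg1 was the highest of this library at 2296 CPM. The goblet-like clusters of small intestine held 1182 CPM (led by Agr2) and 417 CPM (led by Zg16), the latter with a median depth of 11307 against 27320 UMIs. In large intestine the colonocyte-like clusters held 1950 CPM (led by Saa1 and Tgm3) and 672 CPM (led by Cyp2c55 and Fabp6). The goblet-like cluster led by Ido1, Mmp7 and Plet1 held 2044 CPM, and the one led by Reg4, the deep crypt secretory gene, held 1969 CPM. Both lay above the 1814 CPM of the class. Other goblet-like clusters of large intestine, such as that of 424 cells led by Mptx1, Cma1 and Ccl6, are not given here.

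A list of 23 genes for transport through epithelium and control of Pigr gave 4 genes at least 2-fold apart between the epithelial classes of the tissues, beside 24% of all genes measured there, with a median log2 ratio of 0.06. Rab17, a GTPase of epithelial transcytosis, stood at 28.2 CPM in the small and 5.70 CPM in the large intestine (log2 ratio 2.31, 2.15 to 2.46), and the motor gene Myo5b at 63.6 and 29.8 CPM (1.09, 1.01 to 1.17). Lower in small intestine were Tlr4, the receptor for lipopolysaccharide, at 0.207 and 5.08 CPM (-4.62, 8 and 474 UMIs), and Rab3b at 0.724 and 1.59 CPM (-1.13). Of 8 measured homing genes, 3 were at least 2-fold higher in small intestine and 0 lower, led by the chemokine gene Ccl25 at 475 and 24.4 CPM (4.28). Ccl28, its counterpart in colon, stood at 16.4 and 27.9 CPM (-0.77), the lowest of the list and under 2-fold. Of 9 measured genes for induction and survival, 2 were at least 2-fold higher in small intestine, Aldh1a1 (1.52) and Tnfrsf17 (1.27, with 35 UMIs in each tissue), and 3 were lower. Tnfrsf17 is a plasma cell gene, and the part of plasma cell RNA in its epithelial UMIs was not tested. The lower ones were Il10 (-2.43, 3 and 39 UMIs), Tgfb1 (-2.06) and Tnfsf13. Tnfsf13, which encodes the survival factor APRIL and is named after its values were seen, stood at 17.5 and 49.5 CPM (-1.50, -1.62 to -1.38).

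The organoid cells were sorted as epithelium, and no B-like or plasma-like class was found among them. Igha, Igkc, Iglc1, Iglc2, Iglc3 and Mzb1 had 0 UMIs in both cultures, and Jchain had 0 UMIs in control and 3 in cocultured organoids. The floor of 3 UMIs used in ratios was 0.0693 CPM in control and 0.0309 CPM in cocultured organoids. Pigr was present at 560 CPM in control and 543 CPM in cocultured organoids, a log2 ratio of -0.04 (-0.07 to -0.02) that was 0.046 as the mean of each cell's CPM, where 6.89% of 13389 genes differed by at least 2-fold and the median gene stood at -0.10. By class, Pigr was lower in cocultured Paneth-like cells, at 506 against 856 CPM (-0.76, -0.83 to -0.68, from 57 and 28 cells), and 7 of the 28 control cells held 50% of its UMIs. The log2 ratio was -0.23 in cycling-like and 0.17 in enterocyte-like cells and 0.41 over the unnamed clusters. In the cluster led by Olfm4, a stem cell gene, it was -0.11. Most other leading genes of that cluster, such as Cdc6 and Mcm4, belong to DNA replication, so it is called here by its leading gene. None of these reached 2-fold. Across clusters the lowest was the one led by Ly6d, Sprr1a and Sprr2f, at 31.6 CPM in control and 17.5 CPM in cocultured organoids. Of the 22 measured genes of the transport list, 1 differed by 2-fold, Rab3b, with 3 UMIs in control and 30 in cocultured organoids. Of 7 homing genes, 3 did, all with few UMIs: the integrin genes Itga4 (7 and 75 UMIs) and Itgb7 (5 and 24 UMIs, log2 ratio 1.10, -0.32 to 2.85) stood higher in cocultured organoids and S1pr1 (21 and 0 UMIs) was lower. None of 19 secretory genes and 1 of 6 survival genes did. The latter, Tnfsf13b, which encodes BAFF, stood at 5.87 CPM in control and 1.98 CPM in cocultured organoids (-1.57, -1.85 to -1.29).

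Whole Visium sections gave 24355871 and 30091011 UMIs over 2094 and 2571 spots for small intestine and 41256923 and 43832840 UMIs over 2094 and 2179 spots for large intestine. In sections, fewer cells of a type and less RNA per cell cannot be told apart. The 7 genes of IgA production were lower in small intestine than in large intestine by at least 2-fold in every pair of sections, beside 10.6% of 16239 genes measured, and Pigr was not.

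Igha stood at 5840 and 5848 CPM in the small intestinal sections and at 17486 and 16790 CPM in the large intestinal ones, a log2 ratio of -1.55 (lowest and highest pair -1.58 and -1.52). Igkc stood at 3372 and 3398 against 13263 and 12108 CPM (-1.91). Jchain followed at 1009 and 948 against 3235 and 3034 CPM (-1.68). In these 3 genes the duplicates lay within 1.10-fold of each other and the tissues did not overlap. Mzb1 was scarce but showed the same order, at 16.1 and 16.4 against 76.4 and 74.3 CPM (-2.21). The lambda genes were the furthest apart. Iglc1 stood at 54.2 and 101 against 930 and 911 CPM (-3.57, pairs -4.10 to -3.18), and its small intestinal duplicates differed 1.86-fold. Iglc2 stood at 19.8 and 27.2 against 269 and 231 CPM (-3.41) and Iglc3 at 32.1 and 31.0 against 179 and 180 CPM (-2.51). Pigr stood at 1798 and 1955 against 2488 and 2327 CPM (-0.36, pairs -0.47 to -0.25).

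**Figure D4:**
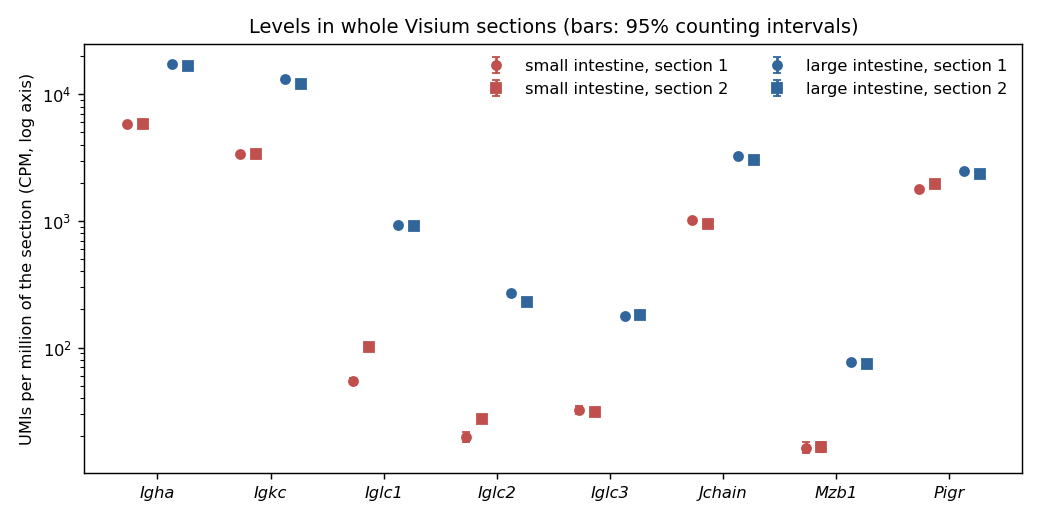
CPM of each Visium section on a log axis for the 8 genes, small intestine in red and large intestine in blue, circles for section 1 and squares for section 2, with 95% counting intervals as bars. The sections of a tissue lie close together, the 7 genes of IgA production are higher in both large intestinal sections, and Pigr differs least.

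Few spots carried the rarer genes in small intestine. The 8 and 6 richest spots held 50% of Iglc3 UMIs in the small intestinal sections, and 65 and 9 spots held 50% of Iglc1, in section 2 with 14.1% in 1 spot. Igha was spread more widely, with 160 and 87 spots for 50% in small and 360 and 399 in large intestine, and Pigr most widely, with 429 and 451 against 602 and 640 spots. The lambda share of light chain constant UMIs was 3.05% and 4.47% in small and 9.41% and 9.85% in large intestinal sections. In the plasma-like cells that share was 9.50% and 9.09%. The small intestinal value comes from few lambda cells, 7 of 88 (7.95%, exact binomial interval 3.26 to 15.7%), so it is not set against the sections.

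Ratios between the genes differed between the assays. Sections held 5.79 and 6.17 Igha UMIs per Jchain UMI in small and 5.41 and 5.53 in large intestine, against 2.62 and 1.95 in the plasma-like cells. They held 0.577 and 0.581 Igkc UMIs per Igha UMI in small and 0.758 and 0.721 in large intestine, against 2.53 and 2.63 in the cells. The order of Igkc and Igha was thus opposite in sections and dissociated cells, and the 2 assays were counted separately.

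Heavy chains other than IgA were rare in sections. Igha made up 99.7% and 99.6% of heavy chain constant UMIs in small and 97.1% and 97.5% in large intestine. The remainder in large intestine was mostly Ighg2b (1.54% and 1.41%) and Ighg2c (0.919% and 0.744%), which stood at 277 and 243 CPM and at 165 and 128 CPM against 7.76 and 10.5 CPM and 0.944 and 0.698 CPM in small intestine. In plasma-like cells of large intestine, Ighg2b was 0.0747% and Ighg2c 0.000682% of heavy chain UMIs. Of the 6 measured heavy chain genes other than Igha, 4 were at least 2-fold lower in small intestine in every pair, beside 10.6% of all genes.

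The counts of the other lists are set beside 11.2% of the 16239 genes called higher and 10.6% called lower in small intestine in every pair. Of 20 secretory genes, 1 was higher and 3 were lower in small intestine by 2-fold in every pair, with Prdm1 the highest (log2 ratio 1.53) and Ssr4 and Derl3 the lowest (-1.82 and -1.70). Of 10 homing genes, 2 were higher and 2 lower: Ccl25 stood at 365 and 420 against 3.90 and 3.40 CPM (6.75) and Ccr9 at 5.34 and 4.59 against 0.970 and 0.616 CPM (2.65), while Ccl28 stood at 13.0 and 9.47 against 93.6 and 90.2 CPM (-3.03) and Ccr10 was at -1.40. Of 13 genes for induction and survival, 2 were higher and 3 lower, from Nos2 (2.10) and Aldh1a1 (1.54) to Tnfsf13 (-1.48) and Tnfrsf17 (-2.13), which encodes the plasma cell receptor BCMA. Of 23 transport genes, 3 were higher, led by Rab17 at 81.5 and 79.0 against 12.7 and 12.8 CPM (2.66) and Il4ra (1.22), and 2 were lower, Rab25 (-1.60) and Tlr4 (-1.44).

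Spots were grouped into regions by their other genes. In large intestine Igha was highest in the region led by Ccl21a, Mmrn1 and Id4, of which the first 2 are lymphatic genes, at 33614 and 33928 CPM, where Pigr was lowest (1525 and 1594 CPM). The region led by Slc37a2, Apol7c and Tgm3 followed with 27957 and 25247 CPM of Igha and had Pigr at 3031 and 2892 CPM. The lowest Igha was in the region led by Retnlb, Ccn3 and Cldn15 (6191 and 5540 CPM). In small intestine 1 region stood far above the rest, led by Apol7c, Mmp10 and Col6a4, with 108 and 146 spots, Igha at 30354 and 33207 CPM, Jchain at 5741 and 5771 CPM and also the highest Pigr of section 1 at 3380 CPM. In section 2 its Pigr of 3420 CPM lay beside 3439 CPM in the region led by Gsdmc2. The region led by the Paneth cell gene Defa22 held 9448 and 8022 CPM of Igha, and a region of 16 and 6 spots led by the fat gene Cfd held 9616 and 3212 CPM. The lowest Igha was in the region led by the neuropeptide genes Gal, Nmu and Penk (1795 and 870 CPM), which also had the lowest Pigr (426 and 362 CPM). The large intestinal region led by Vip, Actg2 and Cnn1, which are neuronal and muscle genes, held 9.73 and 9.47 Igha UMIs per Jchain UMI, where the other 8 regions of large intestine held 4.56 to 6.75.

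Co-occurrence was read after thinning each spot to 2000 UMIs. Jchain was then found in 61.3% and 49.6% of small intestinal and 90.0% and 90.5% of large intestinal spots. Spots with Jchain held 1769 and 1694 Igha UMIs per 100 spots in small intestine, against 445 and 408 in spots without it (log2 ratios 1.99 and 2.05), and 3766 and 3760 against 1152 and 1001 in large intestine (1.71 and 1.91). Mzb1 was higher in spots with Jchain in all 4 sections (1.06, 1.08, 1.49 and 1.94). Pigr differed little and in opposite directions: spots with Jchain held 401 and 488 Pigr UMIs per 100 spots in small intestine, against 351 and 413 without it (0.19 and 0.24), and 483 and 463 against 529 and 509 in large intestine (-0.13 and -0.14). Unthinned spots allow no such comparison in large intestine, where 3 and 4 spots lacked Jchain, with median depths of 3093 and 4729 UMIs against 19332 and 19854 in spots with it.

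Along steps of Jchain, Igha went from 445 and 408 UMIs per 100 spots at 0 Jchain UMIs to 9684 and 10807 at 10 or more in small intestine, and from 1152 and 1001 to 7791 and 7822 in large intestine. Pigr went from 351 and 413 to 461 and 551 in small intestine and from 529 and 509 to 482 and 446 in large intestine. Within regions the Pigr difference between spots with and without Jchain ranged from -0.28 to 0.32 in small and from -0.32 to 0.15 in large intestine, on the log2 scale, over regions with at least 20 spots of each kind.

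**Figure D5:**
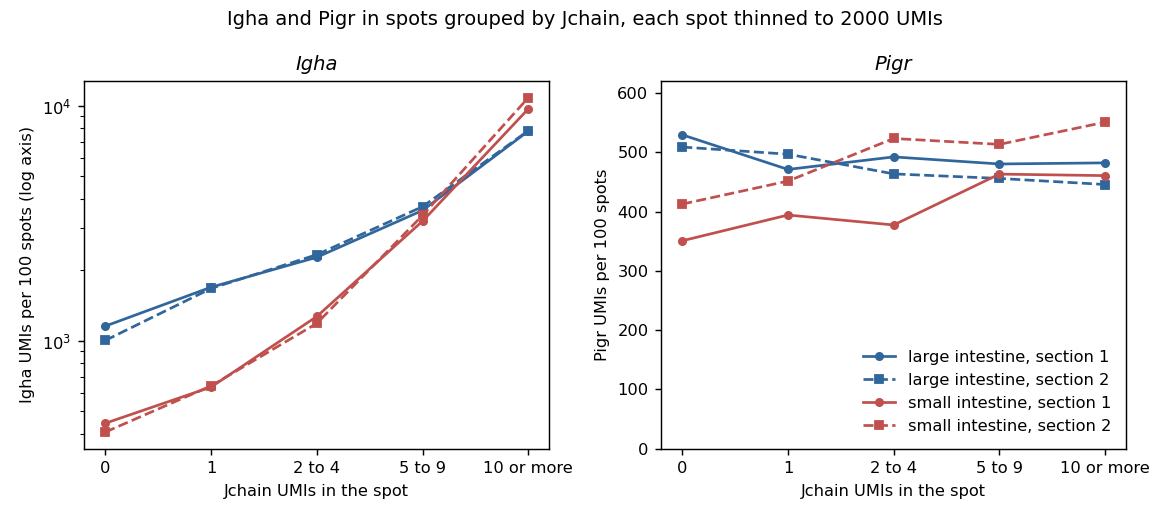
UMIs per 100 spots of Igha (left, log axis) and Pigr (right) in spots grouped by their Jchain UMIs after thinning to 2000 UMIs, with small intestine in red, large intestine in blue, section 1 as solid and section 2 as dashed lines. Igha climbs at each step in all 4 sections, while Pigr is higher at 10 or more Jchain UMIs than at 0 in small intestine and lower in large intestine.

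Over spots, the Pearson correlation of Igha with Jchain was 0.71 and 0.67 in small and 0.74 and 0.76 in large intestine, and that of Pigr with Jchain was 0.12 and 0.13 and -0.03 and -0.08, over 2063, 2424, 2084 and 2166 spots that share a section and a capture area. Spots with stroma genes (Col1a1, Col3a1, Dcn, Adamdec1) held more Jchain than spots without, with log2 ratios of 1.24 and 1.11 in small and 0.62 and 0.62 in large intestine, and Pigr at -0.23 and -0.22 and at 0.01 and -0.10. Spots with B follicle genes held more Jchain too, by 1.77 and 1.98 in small intestine (37 and 53 spots) and 0.84 and 0.73 in large intestine (119 and 135 spots). Spots with villus tip genes held more Pigr, by 0.54 and 0.53 in small and 0.25 and 0.22 in large intestine, and spots with crypt genes held less, by -0.33 and -0.16 and by -0.18 and -0.13.

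The genes most like Pigr and Jchain were ranked by Pearson correlation of log2(CPM + 10) over 29 classes of both tissues, among 5194 genes, as a description without a test. Nearest to Pigr were Cxadr, Mapk13, Klf5, Ugt2b34 and Krt19 (r from 0.94 to 0.93), and nearest to Jchain were Ly6c2, Tnfrsf17, Derl3, Ccr10 and Cacna1s (0.95 to 0.89). Over 8938 spots, where each spot mixes cells, Pigr was nearest to Lgals4, Spint2, Muc13, Cldn7 and Plac8 (mean r over sections 0.56 to 0.45) among 7710 genes. Jchain was nearest to Adamdec1, Trp53inp1, Apoe, Cd52 and Tent5c (0.34 to 0.27).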

How the data were processed

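Single-cell and Visium RNA was measured in 8 mouse libraries: 2 of organoids, 2 of sorted tissue cells and 4 sections. The authors deposited raw UMI counts per gene and barcode, made with Cell Ranger 6.0.1 and Space Ranger 1.2.1 per the file headers and with mm10 per the submitters' processing notes. The strand setting of the counting is not given in the sources used here. The members and the gene lists were chosen with earlier results of these data known.

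Cells needed 500 or more genes and no more than 20% mitochondrial UMIs, which removed 5497 small and 2060 large intestinal barcodes over the mitochondrial limit. Doublets were removed by their Scrublet scores at an assumed 0.8% per 1000 cells. Cells were normalised to 10000 UMIs and clustered (scanpy 1.11.5, 2000 variable genes, 30 components, 15 neighbours, resolution 1, Leiden) without immunoglobulin genes, Jchain, Mzb1 or Pigr. A cluster was named from at least 3 detected markers, and class names are therefore rebuilt and not the authors'. Spots with at least 500 UMIs were kept and clustered at resolution 0.5.

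UMIs were summed over each class and divided by its total (CPM). Ratios have exact 95% conditional binomial intervals, levels exact Poisson ones, and shares of cells Clopper-Pearson ones, all covering counting error only. With 1 library per group and technical duplicate sections, no test was run. A count under 3 was set to 3 in ratios. A gene entered the 2-fold counts when the higher group had 20 or more UMIs of it. Besides the members, each list's 2 highest and 2 lowest genes and the 5 genes most like Pigr and Jchain were to be named, and any other gene is said to be chosen after its values were seen. Shares of cells and co-occurrence in spots used 2000 UMIs drawn per cell or spot, leaving out shallower ones, which left 2458 small and 5238 large intestinal cells. Depth is given in the report. Cell filters, doublets, clustering resolution, CPM scaling, light chain threshold, thinning and single sections were varied. The 2-fold call and the ratio interval were tested on simulated counts, and the other steps were not.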

Additional observations from a re-analysis of the deposited data

Results flagged for a closer look

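Pigr in spots with Jchain stood out because both sections of small intestine went one way and both sections of large intestine the opposite way. The mean log2 ratio to spots without Jchain was 0.22 in small and -0.13 in large intestine. The difference was not tested.

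Spots with villus tip genes split in the same manner for Igha and Jchain. The mean log2 ratio of Igha to spots without those genes was 0.041 in small and -0.17 in large intestine, and that of Jchain was 0.15 in small and -0.13 in large intestine. These differences between the tissues were not tested either. The villus tip genes were listed for small intestine, and large intestine has no villi.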

How the results depend on the processing

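The Pigr log2 ratio of cocultured to control organoids was -0.04 and became -0.095 with a stricter cell filter and 0.046 as the mean of each cell's CPM, which reverses it. Among the 7 genes of IgA production in plasma-like cells, 1 was past 2-fold. That count was 2 with CPM over genes other than immunoglobulins and Jchain, and 0 without the 2 Iglc3-led cells, an alternative chosen after seeing the data, under which the Iglc3 log2 ratio was -0.072. The Pigr log2 ratio of spots with to spots without Jchain was 0.74 in small intestine without thinning. In large intestine it was -0.074 when thinned to 1000 UMIs and 1.96 without thinning, a value that contrasts 3 and 4 shallow spots without Jchain with the remaining spots, which have a higher median depth. Leaving out each section in turn gave 0.19 to 0.24 in small and -0.14 to -0.13 in large intestine, and 7 to 7 of the 8 genes past 2-fold between sections. The share of lambda cells ranged over the alternatives from 6.17% to 9.09% in small and from 6.60% to 7.33% in large intestine. Of 7 epithelial classes of small intestine 4 to 5 were at least 2-fold above B-like cells, and in large intestine 6 of 6. Of 143 other values recomputed, 90 moved within their counting interval or spread, 52 moved beyond it and 1, Iglc3 in plasma-like cells, was past 2-fold and changed sign. Counting values under 2-fold, 2 changed sign, the other being Jchain in plasma-like cells, at 0.16 with CPM over genes other than immunoglobulins and Jchain. No paired analysis was possible because the sections that share a number are of different tissues and no test was run. Where a gene has few UMIs, counting intervals are wider relative to its level. In small intestinal section 1 they were 14.6 to 17.8 CPM for Mzb1 and 5810 to 5870 CPM for Igha.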
